A study of Mus musculus with 16 samples.

Results

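Fatty acid desaturases and elongases are the enzymes that add double bonds and carbon pairs to long acyl chains, and 9 of their genes were followed across the 16 arrays of a mouse liver study: Scd1, Scd2, Fads1, Fads2, Elovl1, Elovl2, Elovl3, Elovl5 and Elovl6. They were found by the symbol of the array's probe annotation, updated by Entrez number, and 1 probe named each gene. Of the 9, 8 were measured, meaning that the probe's detection p-value was under 0.01 on at least 4 arrays, out of 6559 genes measured in this way. The mice were female C57BL/6J, and total RNA of their frozen livers was read on single-colour Illumina bead arrays. On chip A were 4 mice fed regular chow and 4 fed a high-fat diet (HFD). Chip B carried 4 HFD arrays beside 4 arrays of HFD mice given nicotinamide mononucleotide (NMN), from which cells make NAD, intraperitoneally for 7 days. The HFD arrays of both chips carry the same 4 animal numbers in the column names, so the 16 arrays hold 12 mice. Ages, diet composition, diet length, the NMN dose and any vehicle injection of the untreated mice are not stated in the labels.

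The liver makes most of its monounsaturated and highly unsaturated fatty acids by passing chains back and forth between desaturases and elongases in the endoplasmic reticulum. Scd enzymes place the first double bond in saturated chains, and Elovl6 lengthens the palmitate made by fatty acid synthase so that Scd1 can turn the product into oleate. Fads2 and Fads1 add double bonds to the essential fatty acids, while Elovl5 and Elovl2 lengthen the chains between and after these steps on the way to arachidonate and docosahexaenoate. In liver the transcription factors SREBP-1c, LXR, ChREBP and PPAR alpha are known regulators of several of these genes.

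The 250 bases before the annotated start of 4 members are shown because these are the members with a promoter in the RefSeq table whose values differed most between groups or between mice. They are chr9:77917115-77917364 on the plus strand for Elovl5, chr19:10101504-10101753 on the minus strand for Fads2, chr13:41220404-41220653 on the minus strand for Elovl2 and chr3:129532136-129532385 on the plus strand for Elovl6, all in build GRCm38.p6, at the outer of 2 annotated starts for Elovl2, and written 5′ to 3′ along the gene. Capitals mark matches, on either strand, to 6 motifs: a sterol regulatory element (TCACNCCAC), the CCAAT box (CCAAT), the GC box (GGGCGG), an E-box (CACGTG) and the nuclear receptor motifs DR1 and DR4, which are 2 copies of AGGTCA with 1 or 4 bases between them.
Elovl5: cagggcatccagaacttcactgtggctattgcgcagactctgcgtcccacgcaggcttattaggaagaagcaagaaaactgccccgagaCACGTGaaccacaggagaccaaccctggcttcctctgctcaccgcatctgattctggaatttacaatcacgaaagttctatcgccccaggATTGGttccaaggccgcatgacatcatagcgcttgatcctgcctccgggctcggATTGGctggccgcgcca
Fads2: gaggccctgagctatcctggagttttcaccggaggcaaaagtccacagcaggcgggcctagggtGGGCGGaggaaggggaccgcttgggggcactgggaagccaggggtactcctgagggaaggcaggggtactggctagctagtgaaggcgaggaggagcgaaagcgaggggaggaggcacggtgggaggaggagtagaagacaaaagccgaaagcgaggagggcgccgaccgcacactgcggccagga
Elovl2: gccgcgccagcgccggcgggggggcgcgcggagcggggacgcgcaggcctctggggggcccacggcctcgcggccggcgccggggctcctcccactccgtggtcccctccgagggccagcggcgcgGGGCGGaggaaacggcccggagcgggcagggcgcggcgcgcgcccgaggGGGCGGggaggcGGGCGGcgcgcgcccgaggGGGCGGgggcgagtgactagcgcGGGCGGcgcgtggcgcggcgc
Elovl6: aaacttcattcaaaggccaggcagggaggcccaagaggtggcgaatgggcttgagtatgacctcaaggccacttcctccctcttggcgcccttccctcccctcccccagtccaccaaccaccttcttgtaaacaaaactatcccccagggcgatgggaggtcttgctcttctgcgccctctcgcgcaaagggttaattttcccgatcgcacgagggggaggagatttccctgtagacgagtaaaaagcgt
Elovl5 held an E-box from 161 to 156 bases before the start and CCAAT boxes on the reverse strand at 71 to 67 and at 17 to 13 bases, and no match overlapped another in these 4 windows. The Elovl2 window held 5 GC boxes and the Fads2 window held 1. None of the 6 motifs was in the Elovl6 window. Over 32851 annotated promoters of the same length, 33.8% held a CCAAT box, 32.7% a GC box, 6.02% the E-box, 1.05% the sterol element, 0.0335% DR1 and 0.0152% DR4. A match is a description of letters and not a site of binding. Scd1, Scd2, Fads1 and Elovl3 are named without a promoter. Scd1, Scd2, Fads1, Fads2 and Elovl3 all lie on mouse chromosome 19.

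The mean signal was 202 on all arrays, which had between 9473 and 10569 detected probes of 25697, and precision is limited by having 4 arrays in a group. Values below are log2 signals after background correction and quantile normalization over all 16 arrays (neqc), and they are compared between groups of 1 probe and never between probes. Of 9 hepatocyte marker genes, 7 (Alb, Apoa1, Ttr, Serpina1a, Cps1, Ahsg and Hnf4a) were detected on all 16 arrays and Fgb and Tat on 0. The signal of the Alb probe was only 57.4 to 102.1. Differences were tested with limma over all 6559 genes with the Benjamini-Hochberg adjustment, and a gene passed at an adjusted p under 0.05. Within a group each array is a separate mouse by its number in the column names.

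HFD mouse 1 stood apart from the other HFD mice for these genes, on both of its arrays. It was the lowest of the 4 HFD mice on both chips for 6 of 8 measured members, against 16.3% of all genes, and lay more than 0.5 below the mean of HFD mice 2 to 4 on both chips for 5 of 8, against 3.6% of all genes. On chip A Elovl6 measured 6.62, 10.02, 10.17 and 9.63 in HFD mice 1 to 4, and it measured 6.54, 10.19, 10.23 and 9.55 in the same mice on chip B. Mouse 1 was thus 9.99-fold lower than the mean of the other HFD mice on chip A and 10.9-fold lower on chip B, below all chow mice as well. For Fads1 it was 2.03-fold and 2.19-fold lower, for Fads2 1.98-fold and 1.89-fold, for Scd1 1.78-fold on both chips, and for Elovl5 1.51-fold and 1.58-fold. Its arrays had 9948 and 9952 detected probes, within the range of the others. This mouse was singled out after its values were seen, so results are given with and without it. Leaving out a mouse chosen for low values raises the HFD means of these members. Counts without it thus favour higher values in HFD than in chow or NMN mice and are descriptive. The leading number of its column name differs from that of the other HFD mice and recurs in some chow and NMN mice. What that number stands for is not stated in the labels.

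**Figure D1:**
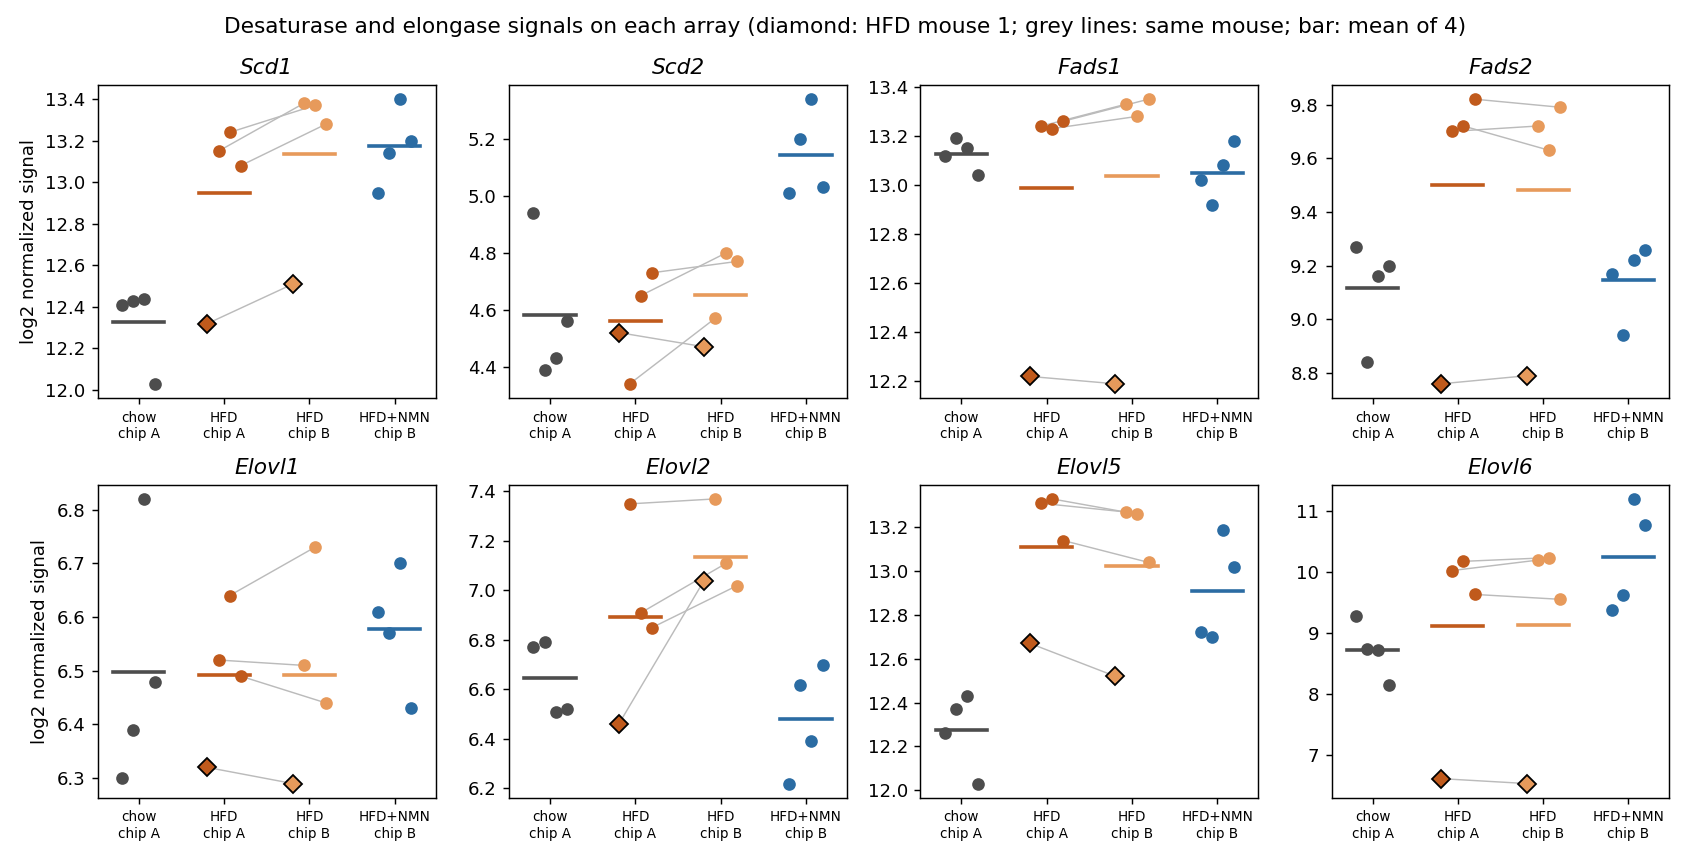
Log2 normalized signal of each of the 8 measured members (1 panel each, with its own axis) on the 16 arrays in 4 groups; points are arrays, bars are means of 4, grey lines join the arrays of 1 HFD mouse, and diamonds are HFD mouse 1. HFD mouse 1 sits at 6.62 and 6.54 for Elovl6, far below the other HFD arrays, while for Elovl5 every HFD array of chip A is above every chow array.

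The comparison on chip A asked which members differed between HFD and chow livers. Elovl5 rose 1.79-fold and was the only member of 8 to pass, against 6.89% of all genes (3.16% higher and 3.74% lower). The median log2 change of the 8 members, with Scd2 near background among them, was 0.31, beside -0.01 over all genes tested. Scd1 had a log2 change of 0.62 and Fads2 of 0.38, neither past the threshold with all mice in the fit. Without HFD mouse 1 on both chips, Scd1, Fads2 and Elovl5 passed, 3 of 8 members against 4.62% of all genes (1.89% higher). That mouse was chosen for its low values of these genes, so leaving it out favours such calls.

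Scd1 encodes the main stearoyl-CoA desaturase of liver. It measured 12.41, 12.43, 12.44 and 12.03 in chow mice 1 to 4 and, on the same chip, 12.32, 13.15, 13.24 and 13.08 in HFD mice 1 to 4. HFD mice 2 to 4 lay above every chow mouse and HFD mouse 1 lay among the chow mice, so the groups overlapped. The log2 change was 0.62 (SE 0.21, adjusted p = 0.0838, n = 4 arrays per group) by limma, and 0.83 (SE 0.12, adjusted p = 0.00307) without HFD mouse 1. Scd1 also passed at the same change of 0.62 with the animal as a random block (adjusted p = 0.0329), a fit that takes account of the 2 arrays of each HFD mouse. It did not pass on the 8 arrays of chip A alone, where each mouse enters once (0.62, SE 0.19, adjusted p = 0.0918). Scd1 passed in 5 of 19 alternative fits, with an adjusted p of up to 0.207 in the rest. Scd2, an isoform best known from brain and fat tissue, was close to background. Its probe was detected on 1 of 4 chow arrays and on 0 of 4 HFD arrays of chip A, so no change with the diet is given or plotted.

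Fads1 encodes the delta-5 and Fads2 the delta-6 desaturase. Fads1 measured 13.12, 13.19, 13.15 and 13.04 in chow mice 1 to 4 and 12.22, 13.24, 13.23 and 13.26 in HFD mice 1 to 4. HFD mice 2 to 4 were just above the chow mice and mouse 1 was far below, which gave a log2 change of -0.14 (SE 0.25, adjusted p = 0.763) with all mice and of 0.12 (SE 0.07, adjusted p = 0.359) without mouse 1. Fads2 measured 9.27, 8.84, 9.16 and 9.20 in chow mice and 8.76, 9.70, 9.72 and 9.82 in HFD mice. Its change was 0.38 (SE 0.23, adjusted p = 0.313) with all mice, and 0.63 (SE 0.11, adjusted p = 0.00714) without HFD mouse 1, when the groups no longer overlapped.

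Elovl5 encodes the elongase of polyunsaturated chains that acts between the desaturases. It measured 12.26, 12.37, 12.43 and 12.03 in chow mice 1 to 4 and 12.67, 13.31, 13.33 and 13.14 in the HFD mice of that chip. Every HFD array was above every chow array, as for 7.39% of all genes. The log2 change was 0.84 (SE 0.18, adjusted p = 0.0145 by limma, exact permutation p = 0.0286 two-sided, the smallest that 4 against 4 can give). It was 0.99 (SE 0.13, adjusted p = 0.00264) without HFD mouse 1, which was the HFD mouse closest to chow. Elovl6, the elongase of palmitate, measured 9.28, 8.74, 8.72 and 8.15 in chow mice, so that HFD mouse 1 lay below and HFD mice 2 to 4 above all of them. The change was 0.39 (SE 0.81, 95% interval -1.35 to 2.12, adjusted p = 0.809) with all mice and 1.22 (SE 0.38, adjusted p = 0.0794) without mouse 1.

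Elovl2, which lengthens the longest polyunsaturated chains, measured 6.77, 6.79, 6.51 and 6.52 in chow and 6.46, 7.35, 6.91 and 6.85 in HFD mice on chip A. Its change of 0.25 (SE 0.16, adjusted p = 0.348) did not pass, nor did 0.39 (SE 0.15, adjusted p = 0.125) without HFD mouse 1, and without HFD mouse 2 on chip A it was 0.09 (adjusted p = 0.751). Elovl1, an elongase of saturated very long chains found in most tissues, had a change of -0.01 (SE 0.12, 95% interval -0.25 to 0.24, adjusted p = 0.985). The chow arrays ranged from 6.30 to 6.82 and the HFD arrays from 6.32 to 6.64 for this gene. Elovl3, an elongase of saturated chains prominent in brown fat and skin, was detected on 0 of 16 arrays, with signals from 33.1 to 50.6, and no change can be given for it. With HFD mouse 1 left out, 6 of 8 members had all HFD arrays of chip A above all chow arrays, against 9.93% of all genes. These were Scd1, Fads1, Fads2, Elovl2, Elovl5 and Elovl6. The mouse left out was chosen for its low values of these same genes, which favours such a count, so the count tests nothing.

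**Figure D2:**
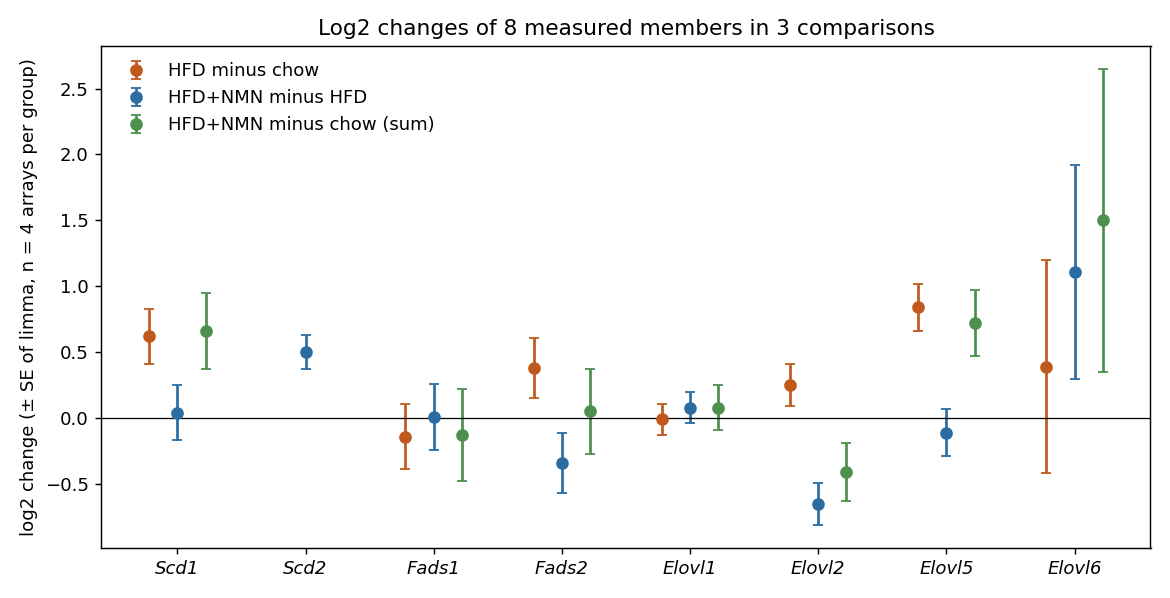
Log2 change of each measured member (y axis, with the SE of limma as bars, n = 4 arrays per group) for HFD minus chow on chip A, HFD with NMN minus HFD on chip B, and their sum. Scd2 is drawn for NMN alone, and Elovl5 at 0.84 is the diet change that passed, and Elovl2 at -0.65 and Scd2 at 0.50, whose HFD arrays were not well above background, are the NMN changes with the smallest SE relative to their size.

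The comparison on chip B asked which members differed after NMN in HFD mice. No member of 8 passed, as for 0% of all genes: limma called 0 of 6559, and 643 genes (9.8%) had an unadjusted p under 0.05, among them Scd2 and Elovl2. These were also the 2 members whose groups did not overlap, Scd2 higher (2.41% of all genes) and Elovl2 lower (2.49%). Scd2 counted as measured mainly through the NMN arrays, so its values support no difference. The members' median change, with Scd2 among the 8, was 0.02 and that of all genes 0. The diet and NMN comparisons use the same 4 HFD mice, so their changes are not independent of each other.

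Elovl2 measured 7.04, 7.37, 7.11 and 7.02 in HFD mice 1 to 4 on chip B and 6.22, 6.62, 6.39 and 6.70 in NMN mice 1 to 4. With no account taken of the chip, the NMN arrays lay in the range of the chow arrays of chip A or lower. All NMN arrays were below all HFD arrays of chip B. The log2 change was -0.65 (SE 0.16, 95% interval -0.99 to -0.32, adjusted p = 0.19 by limma, exact permutation p = 0.0286, the smallest possible), and without HFD mouse 1 it was -0.68 (SE 0.15, adjusted p = 0.0907). In the HFD mice themselves, the chip B value of Elovl2 exceeded the chip A value by 0.58, 0.02, 0.20 and 0.16 in mice 1 to 4.

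Scd2 measured 4.47, 4.57, 4.80 and 4.77 in HFD mice 1 to 4 on chip B and 5.01, 5.20, 5.34 and 5.03 in NMN mice 1 to 4. All NMN arrays were above all HFD arrays. The probe was detected on 4 of 4 NMN arrays and on 0 of 4 HFD arrays, and it counted as measured only through the NMN arrays and 1 chow array, so a difference was bound to appear among measured genes. Set against the lowest signal detected on each HFD array, or the measured value if higher, the NMN mean was 1.33-fold higher. The measured means were 4.65 and 5.15 (adjusted p = 0.191 by limma). Given how the probe came to be measured, none of these values supports a difference. The raw signals were 41.8 to 53.5 in HFD and 55.4 to 65.5 in NMN mice.

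Fads2 measured 8.79, 9.72, 9.63 and 9.79 in HFD mice 1 to 4 on chip B and 9.17, 8.94, 9.22 and 9.26 in NMN mice. Every NMN array was below HFD mice 2 to 4 and above HFD mouse 1. The change was -0.34 (SE 0.23, adjusted p = 0.705) with all mice and -0.57 (SE 0.11, adjusted p = 0.0628) without HFD mouse 1. Fads1 had a change of 0.01 (SE 0.25, adjusted p = 0.995), and of -0.27 (SE 0.07, adjusted p = 0.194) without mouse 1. Without that mouse, Fads1, Fads2 and Elovl2 were lower in all NMN arrays than in all HFD arrays, against 4.04% of all genes. Leaving out a mouse chosen for its low Fads1 and Fads2 favours such a result. Scd2 was higher, against 4.94%, which supports no difference given how it came to be measured. In the fit without HFD mouse 1 limma called 4 genes in all, none of them a member (0.061%).

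Elovl6 measured 9.37, 9.62, 11.19 and 10.77 in NMN mice 1 to 4. The NMN mice thus ranged as widely among themselves, with an SD of 0.88, as many group differences here, and NMN mice 3 and 4 were above every other array. The change was 1.11 (SE 0.81, 95% interval -0.62 to 2.84, adjusted p = 0.726), and 0.25 (SE 0.38, adjusted p = 0.909) without HFD mouse 1, so the size of this value rests on that mouse. Scd1 measured 12.95, 13.14, 13.40 and 13.20 in NMN mice against 12.51, 13.38, 13.37 and 13.28 in HFD mice, a change of 0.04 (SE 0.21, 95% interval -0.41 to 0.48, adjusted p = 0.986). Elovl5 ranged from 12.70 to 13.19 in NMN mice against 12.52 to 13.27 in HFD mice, with a change of -0.11 (SE 0.18, adjusted p = 0.914). Elovl1 ranged from 6.43 to 6.70 against 6.29 to 6.73 (0.08, SE 0.12, adjusted p = 0.901).

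**Figure D3:**
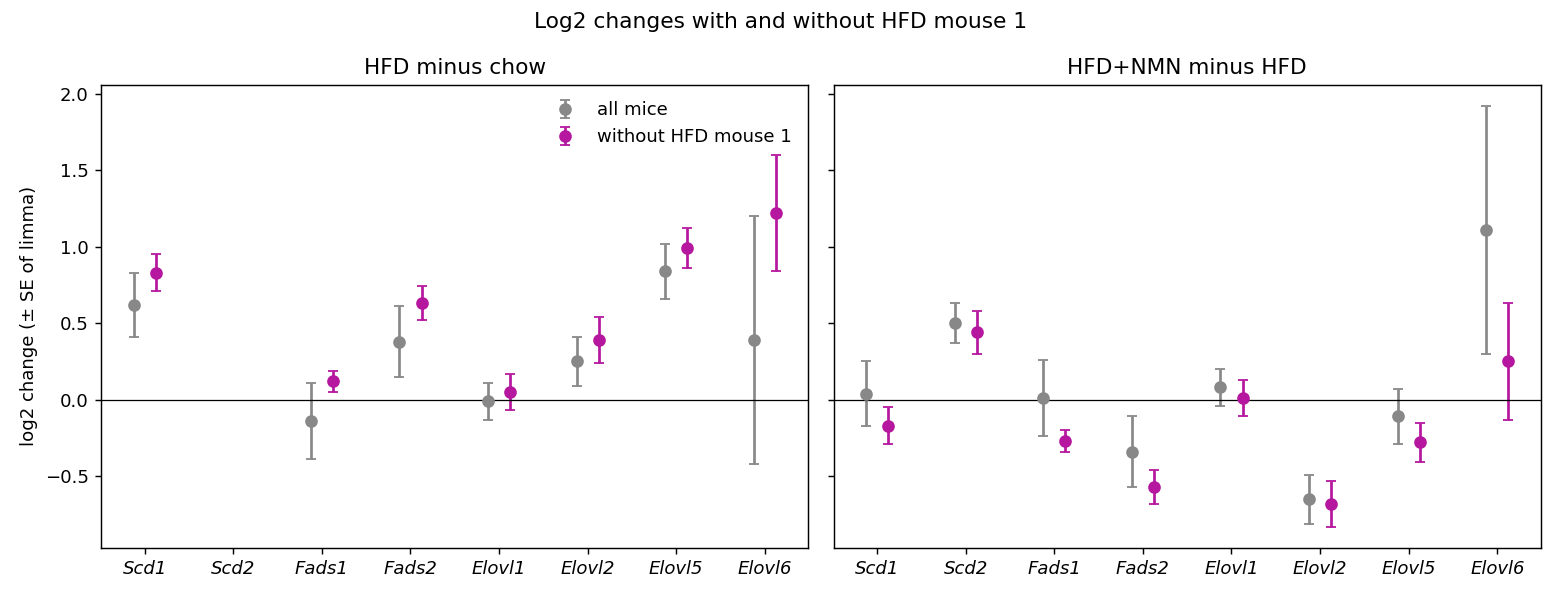
Log2 change with the SE of limma (y axis) for each measured member, left for HFD minus chow and right for HFD with NMN minus HFD, with all mice (grey) and without both arrays of HFD mouse 1 (magenta), Scd2 for NMN alone. Without that mouse, Scd1 moves from 0.62 to 0.83 and Elovl6 from 0.39 to 1.22 for the diet, and Elovl6 moves from 1.11 to 0.25 and Fads2 from -0.34 to -0.57 for NMN.

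NMN mice and chow mice were on different chips, so they were compared through the sum of the diet and the NMN change, which shares the HFD mice with both. No member of 8 passed, against 1.59% of all genes in limma, where 104 genes passed and 1156 (17.6%) had an unadjusted p under 0.05, among them Scd1, Elovl5 and Scd2. The changes were 0.72 for Elovl5 (SE 0.25, adjusted p = 0.15), 0.66 for Scd1 (SE 0.29, adjusted p = 0.262) and 1.5 for Elovl6 (SE 1.15, adjusted p = 0.545). They were -0.41 for Elovl2 (SE 0.22, adjusted p = 0.362), -0.13 for Fads1 (SE 0.35), 0.05 for Fads2 (SE 0.32) and 0.08 for Elovl1 (SE 0.17). For Scd2 no change is given, since its probe was detected on 1 of 4 chow arrays and on none of the HFD arrays that link the chips. In this sum the arrays of each HFD mouse enter with opposite signs, and a fit with the animal as a random block takes that into account. Under that block 3 members passed where 745 of all genes did. Elovl5 and Scd1 passed at unchanged sizes (adjusted p = 0.0102 and 0.0304). The call of Scd2, which counted as measured mainly through the NMN arrays, supports no difference.

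The repeat arrays of the HFD mice show how far a member moved between chips with mouse and diet the same. The mean difference of chip B minus chip A was 0.19 for Scd1 (SD 0.04 over 4 mice) and 0.24 for Elovl2 (SD 0.24), and both were higher on chip B in every mouse. It was -0.09 for Elovl5 (SD 0.04), lower on chip B in every mouse, 0.06 for Fads1 (SD 0.06), and within 0.02 of 0 for Fads2, Elovl1 and Elovl6. No member of 8 passed, against 0.0457% of all genes, and 179 genes (2.73%) had an unadjusted p under 0.05. That fit does not pair the arrays of a mouse. With the animal as a block 10 genes passed and again no member, with adjusted p = 0.109 for Scd1, 0.25 for Elovl2 and 0.356 for Elovl5. Apart from Elovl2 in mouse 1, a mouse's arrays differed by at most 0.23 for every measured member.

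Among the members, Scd1, Elovl5 and Elovl6 varied together between mice of the same group, a relation whose test did not pass without HFD mouse 1. Each of 12 mice was set against its group mean, with the 2 arrays of an HFD mouse averaged, and 28 pairs were tested by permutation of mice within groups (100000 shuffles) with Benjamini-Hochberg adjustment over the 28 pairs. Scd1, Elovl5 and Elovl6 formed the 3 pairs that passed by Pearson's r. Scd1 and Elovl6 had r = 0.948 (adjusted permutation p = 0.0141) and Spearman's rho = 0.86 (adjusted permutation p = 0.0445), and r was 0.83 without HFD mouse 1 and NMN mouse 1, which lay farthest from the median of Elovl6. Scd1 and Elovl5 had r = 0.935 (adjusted permutation p = 0.0141) and rho = 0.916 (adjusted permutation p = 0.0028), and r was 0.861 without HFD mouse 1 and chow mouse 4. Elovl5 and Elovl6 had r = 0.921 (adjusted permutation p = 0.0232) and rho = 0.832 (adjusted permutation p = 0.055), and r was 0.852 without the same 2 mice. Without HFD mouse 1 alone, the 3 values of r over 11 mice were 0.822, 0.882 and 0.859, with adjusted permutation p = 0.0512, 0.0512 and 0.178, and 0 of 28 pairs passed.

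Fads1 and Fads2, neighbours on chromosome 19, gave r = 0.892 (adjusted permutation p = 0.242) and rho = 0.748 (adjusted permutation p = 0.221). Without HFD mouse 1 their r was 0.238, so the relation rested on that mouse. Fads2 and Scd1 likewise went from r = 0.714 to r = -0.112. Elovl1 and Scd2 had no pair past the threshold, with r between -0.221 and 0.498 for Elovl1 and between -0.0838 and 0.376 for Scd2.

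**Figure D4:**
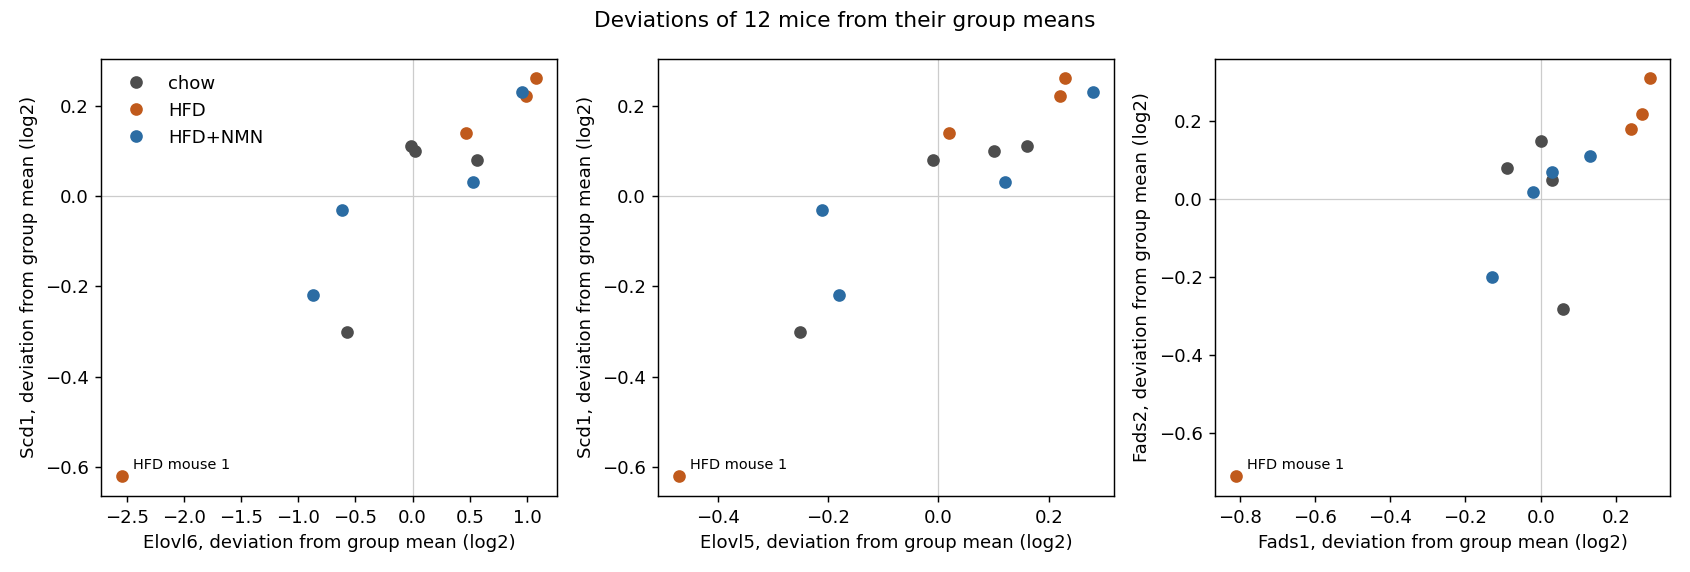
Deviation of each of 12 mice from its group mean (log2, both axes) for Elovl6 and Scd1, Elovl5 and Scd1, and Fads1 and Fads2; points are mice, coloured by group, with HFD mice averaged over both chips. In the first 2 panels the other 11 mice also rise along the line (r = 0.822 and 0.882 without HFD mouse 1), and in the third they do not (r = 0.238).

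Elovl5 was the member that passed, and the 3 genes whose values followed it most closely over the 8 mice of chip A were Pnpla7 (r = 0.98), Egfl7 (r = 0.976) and Ino80c (r = 0.963). Over the 8 arrays of chip B the r values were 0.72, 0.105 and 0.709. The 3 genes were picked for the highest r on chip A among all genes measured, so high values there were bound to appear. These correlations also describe arrays that share a chip and include the diet difference. Pnpla7 passed for the diet itself (log2 change 0.70, SE 0.14, adjusted p = 0.00942), and Egfl7 (adjusted p = 0.16) and Ino80c (adjusted p = 0.155) did not.

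Genes around these enzymes were taken from 5 lists. Of 8 further desaturases and elongases, 6 (Scd3, Scd4, Fads3, Elovl4, Elovl7 and Degs2) were detected on 0 arrays. Of the 2 measured, Fads6 fell by 0.51 with the diet (SE 0.13, adjusted p = 0.0263, a call lost in 6 of 19 alternative fits with p up to 0.0844) and Degs1, a ceramide desaturase, had a change of 0 (SE 0.06). Among 9 measured partners of the elongation cycle and electron donors, such as Hsd17b12 and Hacd3, which carry out its reduction and dehydration steps, 0 passed in any comparison, with 0.12 (SE 0.09) and 0.18 (SE 0.10) for the diet. The smallest p for the diet was that of Hacd2, another dehydratase (-0.27, SE 0.12, adjusted p = 0.167), and over all comparisons that of Hacd4 for NMN against chow (0.40, SE 0.13, adjusted p = 0.131). The list's median was -0.05 for the diet and for NMN, beside -0.01 and 0 over all genes.

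Of 8 measured genes of acyl-CoA supply and de novo synthesis, 0 passed in any comparison, and their median change was -0.01 for the diet and 0.36 for NMN, or 0.4 and 0.07 without HFD mouse 1. Without that mouse the NMN change of Thrsp went from 1.47 to 0.56 (adjusted p = 0.655) and that of Acaca from 0.68 to 0.23 (adjusted p = 0.871). Fasn, fatty acid synthase, had changes of 0.08 (SE 0.14) for the diet and 0.38 (SE 0.14, adjusted p = 0.394) for NMN. Its probe was close to background, with signals from 34.6 to 62, and was detected on fewer than 8 arrays, so these changes say little. Set against chow, the list averaged -1.02 in HFD mouse 1 on chip A and -1.01 on chip B, against 0.14 to 0.52 in HFD mice 2 to 4 on chip A and 0.21 to 0.56 on chip B. Thrsp, a lipogenic nuclear protein, stood at -2.93 in HFD mouse 1 on chip A and at 0.18, 0.75 and 0.95 in HFD mice 2 to 4. Acaca, acetyl-CoA carboxylase, stood at -1.01 in that mouse and at 1.16, 0.75 and 0.32 in the others. The mouse with low Elovl6, Scd1, Fads1 and Fads2 was thus also low in Thrsp, in Acaca and in the mean of this list. Fasn, close to background, stood at -0.12 in that mouse on chip A, within the chow range of -0.16 to 0.25. In NMN mice 1 to 4 the list's mean was 0.26, 0.14, 1.03 and 0.73, with the highest values in NMN mice 3 and 4, where Elovl6 was also highest.

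Of 10 measured regulators, 2 rose and 2 fell with the diet, against 3.16% and 3.74% of all genes. Insig2, which holds SREBP precursors in the endoplasmic reticulum, rose by 1.45 (SE 0.18, adjusted p = 0.0011), and Pparg rose by 0.98 (SE 0.17, adjusted p = 0.00511). Srebf2, the driver of sterol synthesis, fell by 0.64 (SE 0.09, adjusted p = 0.00178), and Rxra, the partner of LXR and PPAR receptors, fell by 0.48 (SE 0.14, adjusted p = 0.0494). The Rxra call was lost in 10 of its alternative fits, with an adjusted p up to 0.143. Srebf1, which encodes SREBP-1c, was detected on 0 of 16 arrays, with signals from 29.2 to 38.6. Insig1, an SREBP target and partner of Insig2, had a change of -1.23 (SE 0.47, adjusted p = 0.12). It passed in 2 of 19 alternative fits, of which 1 had the animal as a random block (adjusted p = 0.0422). On the 8 arrays of chip A alone, where each mouse enters once, it did not pass (adjusted p = 0.118). The change of Insig1 was -0.74 (SE 0.22, adjusted p = 0.0646) without HFD mouse 1. Its pass with the replicate block (adjusted p = 0.024) adds no support, since that block joins chow, HFD and NMN mice that share only a number. Insig1 stood at -2.71 relative to the chow mean in HFD mouse 1, the lowest value of the HFD mice on chip A. Mlxipl, which encodes ChREBP, had a change of 0.08 (SE 0.17) and Ppara one of 0.05 (SE 0.20). For NMN 0 of 10 passed. For NMN against chow 1.59% of all genes passed. Of the regulators, Insig2 was higher (1.17, SE 0.26, adjusted p = 0.0383), and Srebf2 (-0.55, SE 0.13, adjusted p = 0.0426) and Scap, the SREBP escort protein (-0.62, SE 0.15, adjusted p = 0.0487), were lower. These calls were lost in 11, 15 and 16 of 26 alternative fits.

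Of 8 measured genes that use the polyunsaturated chains, Scp2, a peroxisomal thiolase and lipid carrier, rose with the diet by 0.89 (SE 0.15, adjusted p = 0.00349), and Dgat2, which makes triglycerides, fell by 0.49 (SE 0.11, adjusted p = 0.0194). The Dgat2 call was lost in 3 of 19 alternative fits (without chow mouse 1, adjusted p = 0.0602, without HFD mouse 2 on chip A, 0.0558, and without HFD mouse 1 on both chips, 0.0519), and that of Scp2 with the z scores (adjusted p = 0.08). Lpcat3, which places such chains in phospholipids, had a change of 0.15 (SE 0.17, adjusted p = 0.616), and Hsd17b4, of the peroxisomal step to docosahexaenoate, one of 0.22 (SE 0.09, adjusted p = 0.134). For NMN 0 of 8 passed, with Dgat2 at 0.41 (SE 0.11, adjusted p = 0.221). For NMN against chow only Scp2 passed (0.92, SE 0.21, adjusted p = 0.0426), a call lost in 17 of 26 alternative fits.

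Markers of other cell types were also read in the same livers, and in bulk tissue more cells of a type and more RNA per cell cannot be told apart. For the diet, 0 of 7 measured neutrophil, 0 of 5 stellate cell and 0 of 2 acinar genes passed, 1 of 5 macrophage and 2 of 6 endothelial genes rose, and 2 of 7 hepatocyte genes fell. Of all genes, 3.16% rose and 3.74% fell. The mean of the 7 neutrophil genes over the chow mean ran from 0.06 to 2.64 in HFD mice on chip A and from -0.14 to 0.28 in chow mice. Of these genes, Mpo, Camp and Ngp were detected on only 4 arrays and Elane on 5, and Cxcr2 was detected on 0 arrays. The neutrophil mean was high in HFD mice 2 and 3 (2.64 and 2.5) and low in mice 1 and 4 (0.53 and 0.06). Elovl5 and Scd1 were high in mice 2, 3 and 4. The mean of 5 macrophage genes ran from 0.31 to 1.38 in HFD and from -0.28 to 0.24 in chow mice, with Cd5l detected on 0 arrays. Among these 5 genes, Timd4 was detected on only 5 arrays and Marco on 8. For 6 endothelial genes the ranges were 0.31 to 0.54 and -0.19 to 0.27, with Kdr and Oit3 detected on 0 arrays, and for 7 hepatocyte genes -0.33 to -0.21 and -0.05 to 0.05, with Fgb and Tat detected on 0 arrays. For 5 stellate cell genes, of which Col1a1 was detected on only 5 arrays, they were -0.11 to 0.27 and -0.13 to 0.12. For 2 acinar genes they were -0.35 to -0.07 and -0.06 to 0.13. The part of these cell types in the change of Elovl5 was not tested. On chip B the neutrophil mean ran from 0 to 2.60 in HFD and from 0.14 to 0.76 in NMN mice, and its part in the NMN values of Elovl2 and Scd2 was not tested. Of 6 adipocyte genes with a probe, Adipoq, Lep, Plin1, Retn and Fabp4 were detected on 0 arrays. The sixth, Cidec, a lipid droplet protein that fatty hepatocytes also make, stood at 1.89 over the chow mean in HFD mouse 1 and at 0.25 to 0.44 in HFD mice 2 to 4 on chip A. Cidec values of NMN mice 1 to 4 were 2.11, 0.66, 2.62 and 0.25. Cidec was thus also high in NMN mouse 3, which had the highest Elovl6 (11.19). It was high as well in NMN mouse 1, which had the lowest Elovl6 of the NMN mice (9.37). The Cidec probe was detected on only 6 arrays, with signals from 28.7 to 145.4, so its low values are close to background.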

How the data were processed

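Groups, chips and replicate numbers were read from the titles and design text, and the header of the signal table pairs each column with its sample. The deposited table holds an intensity per probe on a linear scale, which the authors had scaled to 1 mean per array with no background subtracted. Each intensity has a deposited detection p-value beside it. Another deposited table holds the authors' score, a z value with mean 0 and SD 1 within each array, used only as an alternative. The labels name no scanner software.

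Intensities were background-corrected and quantile normalized with neqc (offset 16) of limma 3.58.1 in R 4.3.3. Differences on this log2 scale are drawn toward 0 at low signal. Of 10550 probes with a detection p under 0.01 on at least 4 arrays, those with a symbol gave 6559 genes, the brightest probe standing for a gene. All 16 arrays entered 1 limma fit with 4 groups, and the code was tested on simulated data. That fit counts both arrays of an HFD mouse as independent, and the animal as a random block was the alternative. Same-numbered HFD arrays come from the same animal by the column names, and their deviations from the group means correlated with r between 0.765 and 0.892. Intervals are 95% intervals of limma. Members, lists and tests were chosen with earlier results of these data known. All members are named, with Srebf1, Insig1, Mlxipl, Ppara, Pparg and Fasn and up to 4 genes of each other list and comparison with the smallest p. Hsd17b12, Lpcat3, Thrsp, Acaca and Cidec were described after their values were seen. Promoters are RefSeq's of GRCm38.p6, and 5 of 9 members matched. The alternatives tried were no background correction, each chip normalized alone, the z scores, an offset of 50, other detection filters, the arrays of 1 chip, blocks, array weights and leaving out each array.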

Additional observations from a re-analysis of the deposited data

Results flagged for a closer look

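Within groups of 4 arrays, 7 of 32 combinations of a measured member and a group had 1 mouse whose gap to its nearest neighbour, as a share of the group's range, exceeded Dixon's 95% critical value. Chance marks about 5% of groups, and over all genes 5.6% of HFD groups on chip A and 4.65% on chip B exceeded it. HFD mouse 1 was the lowest array in 6 of the 7. The share was 0.971 for Fads1 on chip A (12.22, with the nearest mouse at 13.23) and 0.938 on chip B (12.19 and 13.28), which are 2 arrays of 1 mouse. For Fads2 it was 0.889 on chip A (8.76 and 9.70) and 0.835 on chip B (8.79 and 9.63). For Elovl6 on chip A it was 0.85 (6.62 and 9.63), and for Scd1 on chip B 0.886 (12.51 and 13.28). Mouse 1 was lowest and past this value for 1.01% of all genes on chip A and 0.808% on chip B. The 7th was chow mouse 4 for Scd1 (12.03, with the nearest at 12.41), with a share of 0.938.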

How the results depend on the processing

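Elovl5 passed for the diet in all 19 alternatives, with log2 changes from 0.75 to 0.99 and adjusted p from 0.00234 to 0.0458. The number of members called for the diet was 1, and 2 with the animal as a random block, with the replicate block (853 genes against 452) or with array weights (780 genes), and 3 with HFD mouse 1 left out on both chips, a setting added after its values were seen. It ranged from 1 to 2 when 1 array was left out, with 201 to 510 genes called, and 259 genes passed with no detection filter. For NMN 0 members passed in every alternative, with 0 to 10 genes called, 10 of them under the replicate block. For NMN against chow the count was 0, but 3, Scd2 included, with the animal as a random block (745 genes against 104) and 1 with the replicate block (326 genes), with 7 to 265 genes called when 1 array was left out, 197 with array weights, 61 with the z scores and 13 with no detection filter. For the repeat arrays 0 members passed in every alternative run. Of the covarying pairs 3 passed in each normalization tried, 2 by Spearman and 0 without HFD mouse 1. The chow and HFD mice, and the HFD and NMN mice, share only numbers: same-numbered arrays deviated with r from -0.007 to 0.237 and from -0.275 to 0.328.

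Some changes smaller than their SE turned sign, and none of them was called. With array weights, the diet changes of Elovl1, Thrsp and Ppara were 0.05, 0.17 and -0.04, and the NMN changes of Scd1 and Fads1 were -0.07 and -0.12. Without HFD mouse 1, the diet changes of Fads1, Elovl1, Thrsp and Ppara were 0.12, 0.05, 0.63 and -0.12, and the NMN changes of Scd1 and Fads1 were -0.17 and -0.27. With the z scores, the NMN differences of Scd1, Fads1 and Scp2 were -0.02, -0.02 and -0.07. With 1 array left out, the diet changes ranged from -0.23 to 0.12 for Fads1, -0.07 to 0.1 for Elovl1, -0.67 to 0.63 for Thrsp, -0.03 to 0.18 for Mlxipl and -0.12 to 0.16 for Ppara. NMN changes ranged from -0.17 to 0.12 for Scd1, -0.27 to 0.11 for Fads1 and -0.09 to 0.15 for Scp2. NMN against chow ranged from -0.42 to 0.12 for Fads1 and -0.18 to 0.29 for Fads2. For the repeat arrays 7 alternative fits were run, some of them without both arrays of an HFD mouse. Over these fits the changes ranged from -0.03 to 0.01 for Fads2, -0.03 to 0.02 for Elovl1 and -0.03 to 0.05 for Elovl6. The causes were not tested. Each member has 1 probe, so another choice of probe could not be tried.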
